A study of Mus musculus with 8 samples.

Results

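The genotype by CHIR99021 interaction is the difference between the responses of 2 mouse embryonic stem cell lines to the same GSK3 inhibitor, measured gene by gene. A response is the log2 fold change from vehicle to CHIR99021 within a line, and the difference of responses is that of the β-catenin knock-out minus that of its parental line. A negative difference therefore means that the response was lower in the knock-out, and a positive one that it was higher. Every gene that passed an expression filter was a member, which left 17739 of 48440 genes in the table. The study sequenced polyadenylated RNA from 4 groups with 2 libraries each. Parental cells (CTNNB1+/+) and knock-out cells (CTNNB1-/-), both on a 129/Ola background, grew without feeders on gelatin in DMEM with serum. Each line received either 3 μM CHIR99021 or DMSO at 0.3 μl/ml for 72 hours. The labels do not say whether the knock-out is 1 clone or whether the 2 libraries of a group came from separate cultures, and the p-values here reflect library-to-library spread alone, possibly technical. There is 1 line per genotype, so a difference between the lines and a difference between the genotypes cannot be told apart.

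GSK3 is a kinase that, within the destruction complex of Axin and APC, marks β-catenin for degradation, and CHIR99021 inhibits it. Stabilised β-catenin enters the nucleus, where it joins TCF/LEF factors at target genes such as Axin2 and Sp5, and outside the nucleus it links cadherins to the actin cytoskeleton. GSK3 also phosphorylates many proteins outside the Wnt pathway, Myc among them. In mouse embryonic stem cells the inhibitor is used to sustain self-renewal, and Wnt signalling is also known to turn on primitive streak genes such as T.

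Libraries held 23650572 to 27680649 estimated counts. Replicates differed by 3.262 to 4.856 times the variance of pure counting, so no 2 libraries looked like 1 library deposited again. Ctnnb1, which encodes β-catenin, stood at 888 and 906 CPM (counts scaled to a common library size) in parental DMSO, 813 and 844 in parental CHIR99021, 7.98 and 10.7 in knock-out DMSO, and 8.70 and 9.42 in knock-out CHIR99021. All 4 knock-out libraries thus carried low residual Ctnnb1 reads under both treatments. Its difference of responses was 0.07 ± 0.13 (SE), adjusted p = 0.818 by edgeR's quasi-likelihood test with Benjamini-Hochberg adjustment, the test behind every adjusted p below. The 10 embryonic stem cell markers examined were all detected and summed to between 5930 and 6829 CPM. Among markers of other cell types, Ttr (endoderm), Tpbpa (trophoblast), Neurog2 (neurons), Postn and Dcn (fibroblasts) were at 0 counts in all 8 libraries. Other markers of the same types were detected. Per library, trophoblast markers summed to 35.4 to 47.55 CPM (2 of 6 reached 1 CPM) and germ cell markers to 42.95 to 51.3 (4 of 4). Fibroblast markers summed to 5.11 to 10.5 CPM (2 of 6), and blood and endothelial markers to 5.63 to 10.4 (3 of 6). Streak, neural and endoderm sums are given below.

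The 2 lines responded differently at 1087 genes at an adjusted p of 0.05, which is 6.13% of the genes tested. The response was higher in the knock-out at 571 of them (3.22%) and lower at 516 (2.91%). A difference of more than 2-fold was found for 240 genes (1.35%), 104 higher (0.586%) and 136 lower (0.767%). In comparison, CHIR99021 changed 3441 genes in parental cells (19.4%; 9.1% rose and 10.3% fell) and 1252 in the knock-out (7.06%; 2.88% rose and 4.18% fell) at the same threshold. The 4 pairwise CHIR99021-to-DMSO differences of one line lay on 1 side of all 4 of the other line for each of the 1087 genes, as they did for 35.3% of all genes tested. The count of 1087 depended on single libraries: it fell to 700 without parental DMSO replicate 1, to 628 without parental CHIR99021 replicate 1, to 691 without knock-out DMSO replicate 1 and to 605 without knock-out CHIR99021 replicate 2.

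Most of the 1087 genes had a response in the parental line that was absent from the calls in the knock-out. The parental response alone passed the test at 757 genes (69.6%), with a median size of 0.58 on the log2 scale against 0.11 in the knock-out. Another 162 genes (14.9%) moved the same way in both lines but further in parental cells, where the median size was 1.01 against 0.37. Their knock-out response kept a median of 37.3% of the parental one. Opposite called responses were found at 40 genes (3.68%), a knock-out response alone at 77 (7.08%), a larger knock-out response in the same direction at 5 (0.46%), and neither single response at 46 (4.23%). These classes use the same libraries as the interaction and describe it without adding evidence.

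**Figure D1:**
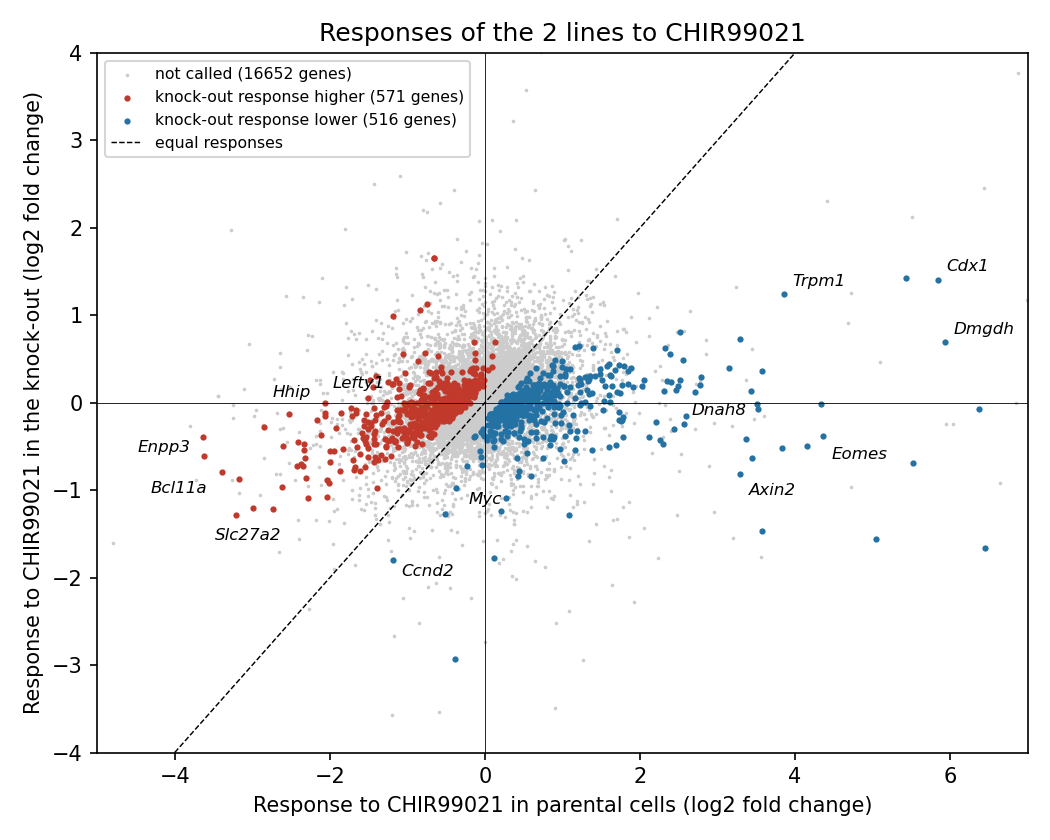
Response to CHIR99021 in parental cells (horizontal, log2 fold change) against that in the knock-out (vertical, log2 fold change) for each gene tested. Points are genes, coloured where the difference of responses was called (571 higher in the knock-out, 516 lower), the dashed line marks equal responses, and 68 genes lie outside the axes. Coloured genes spread along the horizontal axis, with Cdx1 and Axin2 far to the right and Enpp3 far to the left.

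**Figure D2:**
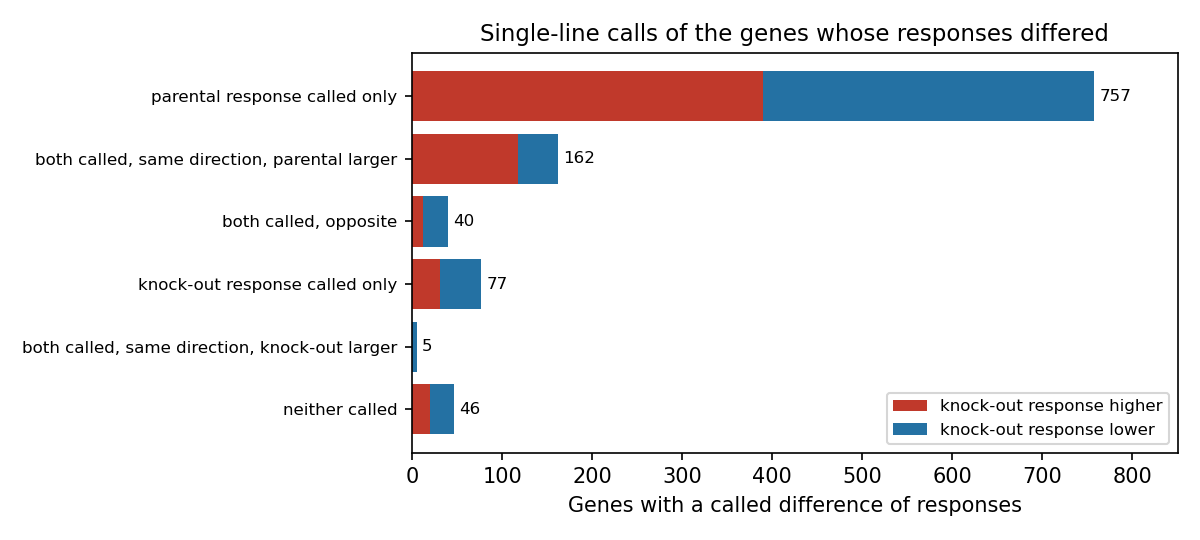
Number of genes with a called difference of responses (horizontal, genes), split by which single-line responses were called (bars) and by the sign of the difference (colours). The longest bar holds the 757 genes with a called response in parental cells alone, and the shortest the 5 with a larger response in the knock-out.

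Genes can also be taken by their parental response, a choice that itself favours a larger response in the parental line. It uses the same libraries as the interaction and adds no evidence. Of the 1614 genes that rose in parental cells, 439 (27.2%) had a called difference of responses, and the median response of all 1614 was 0.39 in the parental line against 0.11 in the knock-out. Of the 1827 genes that fell in parental cells, 525 (28.7%) did, and the medians over all 1827 were -0.42 and -0.13. Among genes that moved over 2-fold in parental cells the share was 50.2% of 243 that rose and 46% of 315 that fell. The response in the knock-out had the parental sign for 73.5% of the genes that rose and 81.7% of those that fell. Across all genes tested, the 2 responses, which share no library, correlated with a Pearson r of 0.08 and a Spearman rho of 0.29. Across the 3441 genes called in parental cells these were 0.27 and 0.57. Genes are not independent replicates, so these correlations are descriptions. In these bulk samples fewer cells of a type and less RNA per cell cannot be told apart.

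The Wnt/β-catenin targets had the lowest median difference of the 44 gene lists examined. Of 26 listed genes 21 were measured, 10 had a lower and 1 a higher response in the knock-out (7 called in all by DESeq2), and the median difference was -0.61, against 0.00 over all genes. Counts of calls in this and the other lists stand against 6.13% called over all genes tested. The median response of the Wnt list was 0.12 in the parental line and -0.30 in the knock-out. Its lower calls were of more than 1 form: Myc, Notum, Ccnd1 and Ccnd2 fell in both lines and further in the knock-out. The calls of Notum, Ccnd1, Ccnd2 and Cdx2 depended on single libraries, as described below. Axin2, a scaffold of the destruction complex and a standard reporter of the pathway, stood at 3.86 and 4.69 CPM in parental DMSO and at 42.5 and 41.5 in parental CHIR99021. In the knock-out it stood at 5.18 and 4.85 CPM in DMSO and at 2.88 and 2.82 in CHIR99021. The lines lay close together in DMSO, and under CHIR99021 both parental libraries lay far above and both knock-out libraries below all DMSO libraries. The difference of responses was -4.11 ± 0.15 (SE; adjusted p = 2.679e-07), made of a rise of 3.29 in parental cells and a fall by 0.82 in the knock-out.

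Sp5, a zinc finger transcription factor and direct Wnt target, was nearly silent outside 1 group. It had 0.0859 and 0.0415 CPM in parental DMSO, 6.21 and 5.77 in parental CHIR99021, 0.181 and 0.191 in knock-out DMSO, and 0.0355 and 0.0772 in knock-out CHIR99021. Its summed counts were 300 against 3 in parental cells, a ratio of 94.8 (exact 95% interval 32.1 to 462, counting error only), and 3 against 10 in the knock-out, a ratio of 0.299 (0.0528 to 1.16). The fitted difference of responses, -8.12 ± 0.78 (adjusted p = 0.000113), was the most negative among genes that reach 5 CPM in some group, and its size depends on those few counts.

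TCF/LEF factors bind the core letters CTTTGAA or CTTTGAT, and promoters of the genes with the most negative differences were searched for them because these factors are the partners of β-catenin. RefSeq promoter windows (250 bases before to 50 after a start, build GRCm38.p6) were matched by symbol for 11295 of 17727 tested symbols. The letters stood on either strand in 16 of 99 windows (16.2%) of genes with a response over 2-fold lower in the knock-out. They stood in 4 of 81 windows (4.94%) of genes with a response over 2-fold higher, and in 866 of 14395 windows (6.02%) of all tested genes. For called genes of any size the shares were 9.47% of 507 windows on the lower side and 5.26% of 570 on the higher side. Among called genes that reach a mean of 5 CPM in some group, the 12 with the most negative differences had a window for 10 and the letters in 3 (Sp5, T and Trpm1), and the 12 most positive had a window for 7 and the letters in none. Axin2 was also among the 12 most negative but not among the 3 with the letters. Dnah8, whose difference had the lowest adjusted p together with Axin2, lay outside those 12. The stretches around the match in the 3 genes and in Dnah8 are shown to place the match. It is in capitals and reads TTCAAAG where it lies on the other strand. All 4 run 5′ to 3′ on the plus strand, from chr2:70474759-70474885, chr17:8434173-8434254, chr7:64185330-64185456 and chr17:30626834-30626935, and a match is a description, not a site.
Sp5: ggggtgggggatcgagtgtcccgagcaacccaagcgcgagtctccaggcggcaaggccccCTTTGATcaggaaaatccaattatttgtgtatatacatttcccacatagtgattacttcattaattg
T: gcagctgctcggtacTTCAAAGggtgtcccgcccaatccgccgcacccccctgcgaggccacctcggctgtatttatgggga
Trpm1: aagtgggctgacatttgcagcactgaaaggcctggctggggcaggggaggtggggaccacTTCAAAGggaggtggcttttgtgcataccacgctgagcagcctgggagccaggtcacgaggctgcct
Dnah8: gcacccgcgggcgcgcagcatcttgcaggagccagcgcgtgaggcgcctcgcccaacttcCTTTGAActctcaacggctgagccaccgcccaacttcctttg

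Other Wnt pathway genes were among those with a lower response in the knock-out. Porcn, the acyltransferase that makes Wnt ligands fit for secretion, stood at 24.1 and 24.3 CPM in parental DMSO and 59.8 and 58.5 in parental CHIR99021, and in the knock-out at 18.7 ± 0.437 (SD, n = 2) in DMSO and 15.5 and 14.4 in CHIR99021. It rose in one line and fell in the other, and the difference was -1.61 ± 0.09 (adjusted p = 2.459e-06). Of the 28 listed ligands, receptors and secretion genes, 25 were measured, 5 had a lower and 1 a higher response in the knock-out, with a median of 0.06. The receptors Fzd10 (-1.21) and Ror2 (-0.76) lay on the lower side and the receptor Fzd7 (0.50) on the higher. Sfrp1, a secreted Wnt antagonist, was the target on the higher side: it fell in parental cells from 195 and 201 CPM to 106 and 106, and stood in the knock-out at 183 and 181 in DMSO and 175 and 173 in CHIR99021 (difference 0.84 ± 0.05, adjusted p = 5.927e-06). Only the parental libraries in CHIR99021 stood apart from the others.

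The 4 TCF/LEF factors, which bind DNA for β-catenin, differed from each other. Tcf7 rose in parental cells from 26.7 and 27.5 CPM to 44.4 and 45.3 and stood in the knock-out at 26.3 and 28.6 in DMSO and 24.1 and 23.4 in CHIR99021 (difference -0.93 ± 0.09, adjusted p = 8.467e-05). Tcf7l1, mainly known as a repressor in stem cells, fell in parental cells from 53.5 and 57.7 CPM to 27.5 and 25.7 and in the knock-out from 60.8 and 62.7 to 48.9 and 44.2 (0.66 ± 0.09, adjusted p = 0.00141). Both lines thus lost Tcf7l1 transcript, parental cells more. Tcf7l2 (0.23 ± 0.12, adjusted p = 0.309) and Lef1 (0.18 ± 0.80, adjusted p = 0.931, at most 0.888 CPM in any library) had no called difference, and at that level a difference in Lef1 was not detectable. The co-repressor gene Tle4 was called on the higher side (0.35), but not without parental CHIR99021 replicate 1 (adjusted p = 0.0559) or knock-out CHIR99021 replicate 2 (0.0627). In the destruction complex 1 of 16 genes was called, Axin2, and the targets of the inhibitor themselves, Gsk3a (-0.03, adjusted p = 0.866) and Gsk3b (0.13, adjusted p = 0.36), were not.

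**Figure D3:**
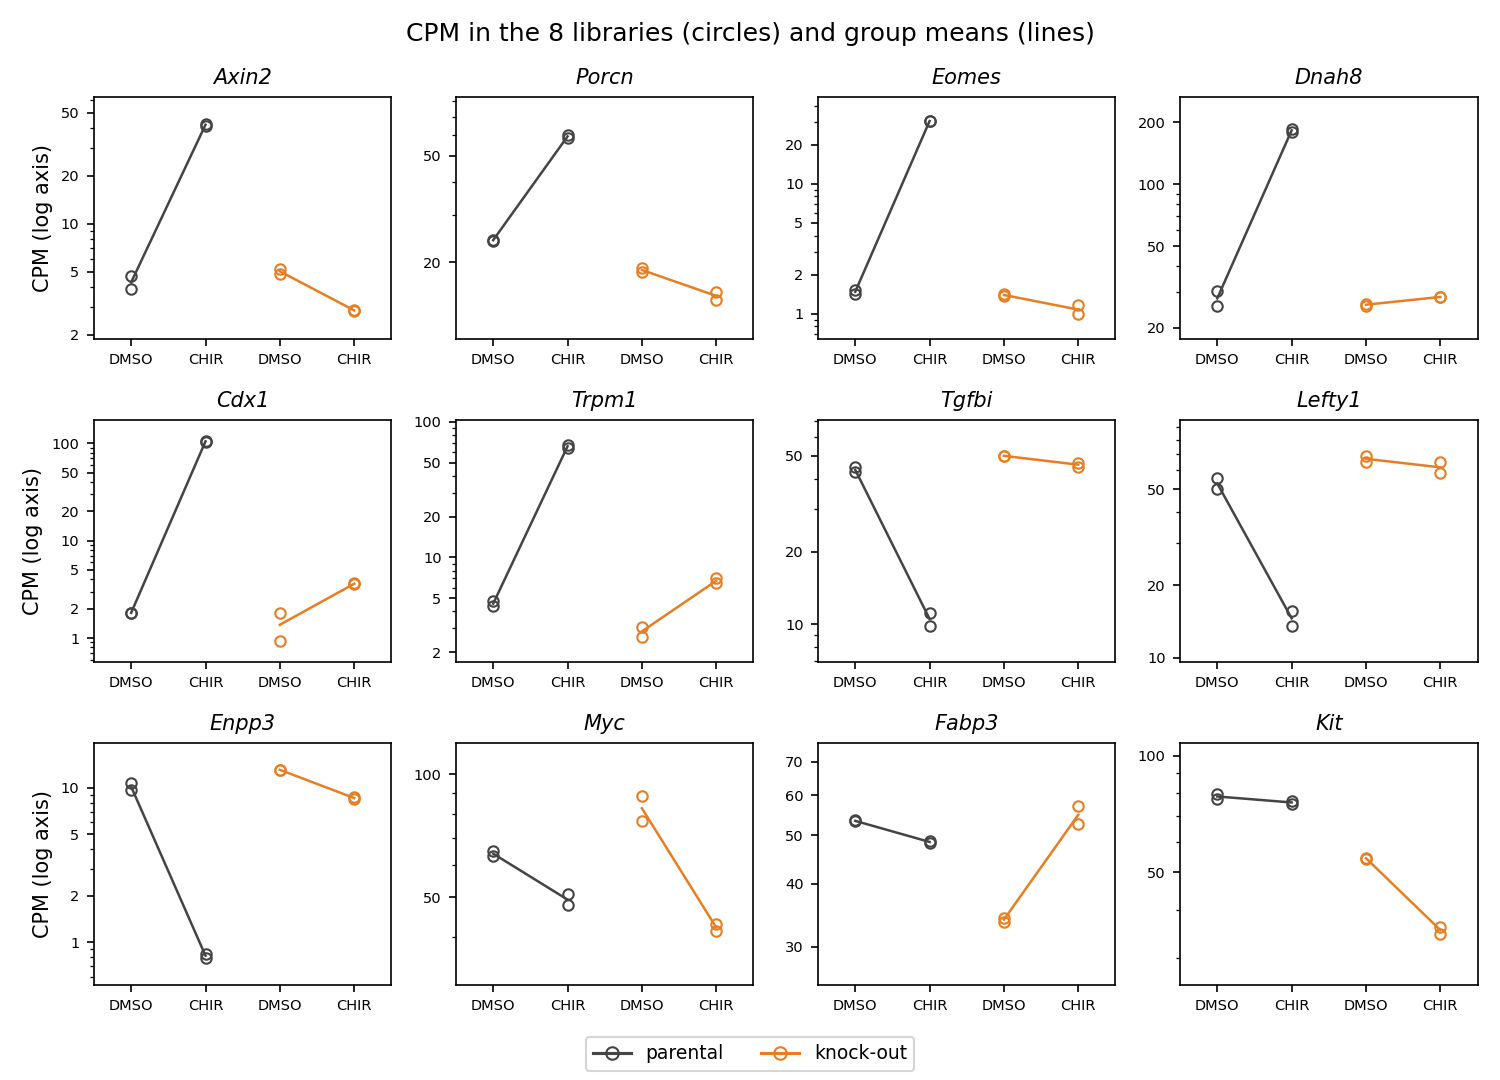
CPM (vertical, log axis) in each of the 8 libraries for 12 genes, with circles for libraries and lines joining the group means of DMSO and CHIR99021 within parental (grey) and knock-out (orange) cells. Axin2 and Porcn rise in grey and fall in orange, Cdx1 and Trpm1 rise in both but further in grey, Tgfbi and Lefty1 drop in grey only, and Fabp3 and Kit move in orange.

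Primitive streak and posterior axis genes came next. Of 26 listed genes 14 were measured, 5 had a lower and none a higher response in the knock-out, and the median difference was -0.59. Eomes, a T-box factor of the streak and of trophoblast, stood at 1.42 and 1.54 CPM in parental DMSO and 30.5 and 30.4 in parental CHIR99021, against 1.38 and 1.41 and then 0.995 and 1.16 in the knock-out. T (Brachyury) rose in parental cells from 0.472 and 0.208 CPM to 12.3 and 10.4, and stood in the knock-out at 0.363 and 0.305 in DMSO and 0.178 and 0.0386 in CHIR99021. Both genes were high in the 2 parental CHIR99021 libraries alone (differences -4.73 ± 0.22, adjusted p = 1.263e-06, and -6.60 ± 0.70, adjusted p = 0.000248). In knock-out CHIR99021 Eomes stayed near its DMSO level. T had 6 summed counts there against 18 in knock-out DMSO, a ratio of 0.332 (exact interval 0.108 to 0.872, counting error only). The knock-out response of T was not called (-1.55, adjusted p = 0.152). The size of the T difference depends on those few counts and on 16 in parental DMSO. The 6 mesoderm and streak markers summed to 3.31 and 3.61 CPM in parental DMSO and 44.6 and 42.7 in parental CHIR99021, and to 4.02 and 3.51 and then 3.13 and 2.97 in the knock-out, with 3 of the 6 reaching 1 CPM. How many cells carried these transcripts was not tested.

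Cdx1, a caudal homeobox gene and Wnt target, behaved otherwise, since it also rose in the knock-out. Parental cells had 1.80 and 1.83 CPM in DMSO and 106 and 103 in CHIR99021, and the knock-out 0.943 and 1.79 and then 3.59 and 3.63. The responses were 5.84 and 1.41, both called, and the difference was -4.44 ± 0.29 (adjusted p = 7.012e-06). Nkx1-2, a homeobox gene of the tail bud, had 0.343 and 0.125 CPM in parental DMSO, 10.7 and 11.2 in parental CHIR99021, 0.109 and 0.0763 in knock-out DMSO, and 0 and 0.116 in knock-out CHIR99021. Its knock-out values rest on 3 counts against 5, a ratio of 0.597 (exact 95% interval 0.0927 to 3.07), it overlaps Fgfr2 in the annotation, and its call (-6.22, adjusted p = 0.0127) was not made without knock-out DMSO replicate 1 (adjusted p = 0.137). Cdx2, at most 1.80 CPM in any library, was called at -4.35 (adjusted p = 0.0448) and in 7 of the 8 fits that left out 1 library was not; only the fit without knock-out DMSO replicate 2 kept it, and the adjusted p was 0.702 without knock-out DMSO replicate 1. It was not called by limma-voom either (adjusted p = 0.108).

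Several genes outside the classic Wnt targets had equally clear differences. Dnah8, a heavy chain of axonemal dynein (chr17:30624354-30877365, GRCm38), stood at 30.2 and 25.5 CPM in parental DMSO, 186 and 180 in parental CHIR99021, 26.2 and 25.7 in knock-out DMSO, and 28.2 and 28.4 in knock-out CHIR99021. The difference was -2.59 ± 0.10 (adjusted p = 2.679e-07) and the 6 other libraries lay close together; Glo1 overlaps it on the opposite strand. Trpm1, a cation channel of melanocytes and retinal bipolar cells and a target of the MiT factors, rose in both lines, from 4.77 and 4.36 CPM to 64.1 and 67.8 in parental cells and from 2.61 and 3.09 to 6.43 and 7.03 in the knock-out (-2.61 ± 0.15, adjusted p = 4.361e-06). Of 15 measured MiT/TFE genes (median -0.04), Trpm1 and Rragd were called, both lower (13.3%, against 6.13% of all genes tested). Rragd (-0.44) lost its call by DESeq2 (adjusted p = 0.119) and without parental DMSO replicate 1 (0.0579) or 2 (0.0555), parental CHIR99021 replicate 1 (0.0699) or knock-out DMSO replicate 1 (0.0574).

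The netrin gene Ntn1 rose in parental cells from 31.6 and 33.0 CPM to 92.8 and 93.3, and stood in the knock-out at 19.9 and 17.7 and then 17.9 and 17.8 (-1.60 ± 0.09, adjusted p = 3.38e-06). Calb2, which encodes the calcium-binding protein calretinin (-3.60), Nt5e, the ecto-5′-nucleotidase CD73 (-3.22), and Lhfpl2 (-2.75) showed the same arrangement. Their parental levels in CHIR99021 were 5.36 and 5.94, 14.5 and 14.8, and 6.17 and 5.65 CPM, and each stayed at or below 1.37 CPM in the 6 other libraries. Lhpp, a phosphatase gene, rose in parental cells from 6.53 and 6.10 CPM to 26.2 and 28.6 and fell in the knock-out from 6.60 and 6.94 to 4.87 and 5.45 (-2.51 ± 0.14, adjusted p = 3.38e-06); it overlaps Fgfr2 on the opposite strand, and whether the counting used strand is not given in the sources used here.

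Enzymes of threonine, glycine and choline breakdown included 5 genes with a lower response in the knock-out and 1 with a higher, of 13 measured (median -0.15). Tdh, the threonine dehydrogenase that feeds mouse embryonic stem cells with glycine and acetyl-CoA, stood at 938 and 930 CPM in parental DMSO and 1419 and 1423 in parental CHIR99021. In the knock-out it stood at 749 and 707 in DMSO and 661 and 654 in CHIR99021, so it rose in one line and fell in the other (-0.75 ± 0.05, adjusted p = 8.937e-06). Dmgdh, the dimethylglycine dehydrogenase, rose in parental cells from 0.0859 and 0.249 CPM to 10.8 and 10.5 and stood in the knock-out at 0.109 and 0.305 and then 0.142 and 0.541. Its difference of -5.25 ± 0.95 (adjusted p = 0.00703) was not called without knock-out DMSO replicate 2 (adjusted p = 0.118).

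Bhmt2, a methyltransferase of the same pathway, rose in parental cells from 0.472 and 0.830 CPM to 7.16 and 7.03, against 0.834 and 0.954 and then 1.10 and 0.850 in the knock-out (-3.30 ± 0.39, adjusted p = 0.000455). Bhmt2 (chr13:93655720-93674302) lies between its close relative Bhmt (chr13:93616675-93637961; -2.75, adjusted p = 0.0412) and Dmgdh (chr13:93674433-93752833), all in GRCm38, so 3 neighbouring genes shared the direction. Reads shared between Bhmt and Bhmt2 could be split by the counting. Pipox, which oxidises sarcosine and pipecolic acid, went the other way: parental cells dropped from 42.6 and 42.5 CPM to 25.2 and 26.1, and the knock-out had 47.0 and 44.3 and then 48.2 and 42.6 (0.73 ± 0.09, adjusted p = 0.00088).

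Sterol synthesis genes had small differences that all pointed 1 way. All 25 listed genes were measured and all 25 had a difference below 0, as did 8903 of the 17739 genes tested, with a median of -0.31. The test was passed by 7 of them, all on the lower side, among them Ebp, Fdft1 and Lss. Fdft1, the squalene synthase, rose in parental cells from 86.5 and 85.8 CPM to 117 and 111, and stood in the knock-out at 83.0 and 82.1 in DMSO and 76.7 and 76.3 in CHIR99021 (-0.52 ± 0.06, adjusted p = 0.000436); it overlaps Ctsb on the opposite strand. Ebp, the sterol isomerase, rose from 23.4 and 20.7 CPM to 42.2 and 39.9 in parental cells against 18.2 and 16.9 and then 17.5 and 18.1 in the knock-out (-0.88 ± 0.11, adjusted p = 0.000606). Lss, which closes the sterol rings, rose in parental cells and fell in the knock-out (0.19 and -0.20, both called; difference -0.39). The list's median response was 0.20 in the parental line against -0.09 in the knock-out.

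Genes of Myc and of entry into the cell cycle were split. Of 25 measured, 8 had a lower and 2 a higher response in the knock-out (median -0.08). Cdkn1a, the p21 inhibitor, rose in both lines, from 25.1 and 26.4 CPM to 85.2 and 79.3 in parental cells and from 28.8 and 28.3 to 38.2 and 35.8 in the knock-out (-1.30 ± 0.09, adjusted p = 7.012e-06). Cdkn1c, the imprinted p57 inhibitor, fell in both, from 41.3 and 39.3 CPM to 11.8 and 13.1 and from 58.7 and 56.0 to 35.8 and 36.8 (1.04 ± 0.09, adjusted p = 6.697e-05). In each case the parental response was the larger.

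The reverse order held for 5 genes that fell in both lines and fell further in the knock-out: Myc, Notum, Ccnd1, Ccnd2 and Ccne1. Myc stood at 63.2 and 64.8 CPM in parental DMSO and 47.8 and 51.0 in parental CHIR99021, and at 88.5 and 76.8 and then 41.3 and 43.1 in the knock-out. The knock-out was above the parental line in DMSO and below it in CHIR99021. The difference was -0.60 ± 0.10 (adjusted p = 0.00356), called in every alternative fit but under the 2-fold threshold. Notum, a secreted enzyme that inactivates Wnt ligands, fell from 15.2 and 13.4 CPM to 10.4 and 9.58 in parental cells and from 14.3 and 12.4 to 5.15 and 5.91 in the knock-out (-0.76 ± 0.16, adjusted p = 0.0164). Its call was not made without parental DMSO replicate 2 (adjusted p = 0.0597), parental CHIR99021 replicate 1 (0.0796), knock-out DMSO replicate 1 (0.0711) or knock-out CHIR99021 replicate 1 (0.0711), nor by DESeq2 (0.053). The cyclin D2 gene Ccnd2 (-0.61, adjusted p = 0.0242), the cyclin D1 gene Ccnd1 (-0.26, adjusted p = 0.0186) and the cyclin E1 gene Ccne1 (-0.26, adjusted p = 0.0283; named after its values were seen) each lost the call in 6 of the 8 fits without 1 library. All 3 kept it without knock-out DMSO replicate 2 and 1 other library: parental DMSO replicate 1 for Ccnd2, parental CHIR99021 replicate 2 for Ccnd1 and parental CHIR99021 replicate 1 for Ccne1. Their adjusted p reached 0.108, 0.0815 and 0.104 in those fits, and Ccnd2 was not called by DESeq2 (adjusted p = 0.208).

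Opposite responses, called in each line, were found at 40 genes, 28 that rose in parental cells and fell in the knock-out and 12 with the reverse. Besides Axin2, Porcn, Lhpp and Tdh, the first kind held Sgk1, a kinase, and Pim1, a kinase induced by STAT3. Sgk1 stood at 320 and 313 CPM and then 425 and 434 in parental cells, against 297 and 299 and then 222 and 231 in the knock-out (-0.84 ± 0.05, adjusted p = 5.566e-06). Pim1 stood at 92.3 and 91.0 and then 140 and 138 CPM in parental cells, against 83.4 and 79.7 and then 64.5 and 64.8 (-0.93 ± 0.06, adjusted p = 5.902e-06). Ephx2, the soluble epoxide hydrolase, rose from 60.4 and 56.4 CPM to 105 and 111 in parental cells and fell from 47.8 and 47.2 to 37.4 and 34.95 in the knock-out (-1.28 ± 0.08, adjusted p = 4.963e-06). For each, the CHIR99021 libraries of the 2 lines lay on opposite sides of all 4 DMSO libraries. The fall in the knock-out was itself near the threshold for Lhpp (adjusted p = 0.0488) and Tdh (0.0354). It was at 0.0149 or less for Axin2, Porcn, Sgk1, Pim1 and Ephx2. Fits that left out a library tested the interaction alone, not the single responses.

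Of the reverse kind, Sfmbt2, an imprinted Polycomb-group gene, fell in parental cells from 33.6 and 32.2 CPM to 20.96 and 23.6 and rose in the knock-out from 72.4 and 74.0 to 94.0 and 94.8 (0.93 ± 0.08, adjusted p = 7.146e-05). Ldhb, a lactate dehydrogenase subunit, fell from 171 and 174 CPM to 123 and 123 and rose from 158 and 150 to 177 and 175 (0.68 ± 0.06, adjusted p = 4.155e-05). Tenm4 (0.64) and the transporter gene Abcc4 (0.56) followed the same order with smaller rises in the knock-out. These rises were 0.20 (adjusted p = 0.0393) and 0.17 (adjusted p = 0.0405), both near the threshold.

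A response called in the knock-out alone marked 77 genes. Kit, the stem cell factor receptor, stood at 79.7 and 77.2 CPM and then 75.0 and 76.4 in parental cells, and fell in the knock-out from 54.2 and 54.5 to 36.2 and 34.8 (-0.56 ± 0.07, adjusted p = 0.000468). Fabp3, a fatty acid binding protein, stood at 53.5 and 53.2 and then 48.1 and 48.8 CPM in parental cells and rose in the knock-out from 33.6 and 34.3 to 57.2 and 52.6 (0.83 ± 0.08, adjusted p = 8.12e-05). Both genes were lower in the knock-out in DMSO. Under CHIR99021 that gap was wider for Kit and reversed for Fabp3, with both knock-out libraries above both parental ones. The nuclear receptor gene Nr5a2 (-0.47) and the metalloprotease gene Adam19 (-0.62) fell in the knock-out alone, and the nuclear RNA Malat1 (0.54) and the claudin gene Cldn4 (0.61) rose there alone. Jup, which encodes plakoglobin, the closest relative of β-catenin, fell in the knock-out from 131 and 122 CPM to 101 and 97.2, with 125 and 128 and then 127 and 122 in parental cells. Its difference of -0.33 ± 0.07 (adjusted p = 0.0123) was not called without parental DMSO replicate 1 (adjusted p = 0.0536), parental CHIR99021 replicate 1 (0.0634) or knock-out CHIR99021 replicate 2 (0.0752). With Jup, the E-cadherin gene Cdh1 and the P-cadherin gene Cdh3 (0.80), 3 of 17 measured catenins and cadherins were called. Cdh1 (-0.25, adjusted p = 0.0356) kept its call without parental DMSO replicate 1 and without parental CHIR99021 replicate 1, and lost it without any other single library, with adjusted p up to 0.16.

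Among genes with a higher response in the knock-out, the most frequent form was a fall in parental cells that was small or uncalled in the knock-out. Among those that reach a mean of 5 CPM in some group, the most positive difference belonged to Enpp3, an ecto-nucleotide pyrophosphatase, which fell from 9.62 and 10.7 CPM to 0.843 and 0.795 in parental cells and from 13.1 and 13.1 to 8.67 and 8.50 in the knock-out (3.02 ± 0.18, adjusted p = 4.143e-06). Bcl11a, a zinc finger factor of blood and brain, fell in parental cells from 5.50 and 5.15 CPM to 0.268 and 0.753 and stood in the knock-out at 5.15 and 5.11 and then 2.98 and 2.94 (2.60 ± 0.37, adjusted p = 0.00158). For both, the parental CHIR99021 libraries alone were near or below 1 CPM.

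Tgfbi, a matrix protein induced by TGF-β, fell in parental cells from 44.8 and 42.6 CPM to 9.85 and 11.2, and stood in the knock-out at 50.1 and 49.8 and then 46.8 and 45.0 (1.94 ± 0.09, adjusted p = 1.58e-06). Myrf, a membrane-tethered transcription factor, fell from 84.9 and 91.0 CPM to 31.1 and 29.7, against 101 and 96.9 and then 91.3 and 90.3 (1.41 ± 0.07, adjusted p = 1.95e-06). Slc27a2, a fatty acid transporter (1.93), and Lrp2, the endocytic receptor megalin (1.62), fell in both lines. Their parental responses were -3.21 and -2.34, and their knock-out responses -1.28 and -0.72. Among called genes that reach a mean of 5 CPM in some group, the rest of the 12 most positive were Hhip, Pirt, Id2, Zfp521, Lefty1, Pcsk1n, Gfod1 and Parp14, with differences between 1.67 and 2.40.

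Pluripotency genes did not move as 1 group. Of 18 general pluripotency genes, 8 had a higher and none a lower response in the knock-out (44.4% called, median 0.23): Dnmt3l, Dppa2, Dppa4, Fbxo15, L1td1, Lin28b, Sall1 and Sox2. L1td1, an RNA-binding protein of stem cells, fell in parental cells from 616 and 607 CPM to 422 and 437, against 623 and 606 and then 549 and 575 in the knock-out (0.38 ± 0.05, adjusted p = 0.00145). Sall1 fell from 339 and 339 CPM to 237 and 236, against 326 and 327 and then 301 and 301 (0.40 ± 0.05, adjusted p = 0.000516). Sox2 had a smaller difference (0.26, adjusted p = 0.024). It kept its call without parental DMSO replicate 2 and without knock-out DMSO replicate 2, and lost it in the 6 other fits that left out 1 library, where its adjusted p reached 0.105.

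Of 22 naive pluripotency genes, 4 had a higher and 4 a lower response in the knock-out (median 0.01). Tfcp2l1, a transcription factor downstream of LIF and of GSK3 inhibition, rose in parental cells from 888 and 899 CPM to 1427 and 1454 and stood in the knock-out at 779 and 792 and then 858 and 841 (-0.58 ± 0.05, adjusted p = 3.313e-05). Klf4 rose from 242 and 229 CPM to 279 and 281, against 208 and 214 and then 202 and 200 (-0.32 ± 0.06, adjusted p = 0.00545). Tcl1, a co-activator of AKT, fell from 110 and 115 CPM to 71.5 and 71.9 in parental cells, against 101 and 97.9 and then 110 and 111 (0.80 ± 0.06, adjusted p = 1.735e-05). Pou5f1 (0.00 ± 0.05, adjusted p = 0.998), Esrrb (0.00 ± 0.05, adjusted p = 0.983) and Nanog (0.08 ± 0.05, adjusted p = 0.412) had no called difference. Esrrb, a known target of Tcf7l1 repression, stood between 746 and 756 CPM in all 4 parental libraries and between 670 and 717 in the 4 knock-out libraries.

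Formative and primed epiblast genes had 4 higher and 2 lower calls of 18 measured (median 0.24), and enzymes of DNA methylation and demethylation 4 and 1 of 18 (median 0.04). The 2 de novo DNA methyltransferases went opposite ways. Dnmt3a fell in parental cells from 91.5 and 87.8 CPM to 43.5 and 43.1 and in the knock-out from 134 and 125 to 102 and 106 (0.73 ± 0.07, adjusted p = 8.676e-05). Dnmt3b rose in parental cells from 89.3 and 91.0 CPM to 104 and 112, against 106 and 96.7 and then 87.7 and 92.4 in the knock-out (-0.43 ± 0.08, adjusted p = 0.00751). Tet1, which oxidises methylcytosine, fell from 787 and 786 CPM to 542 and 559 in parental cells, against 728 and 771 and then 722 and 735 (0.47 ± 0.05, adjusted p = 0.000356).

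**Figure D4:**
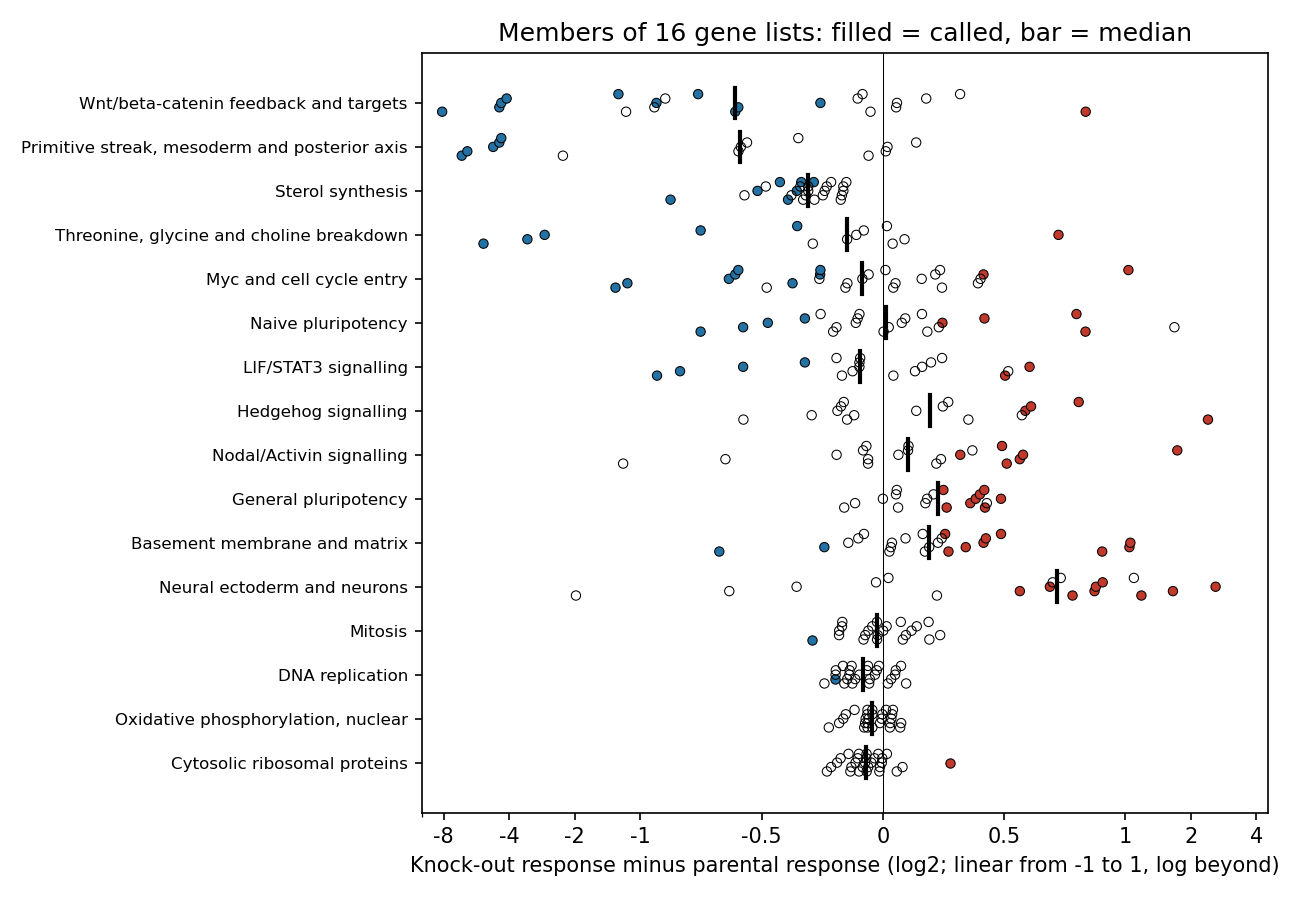
Difference of responses (horizontal, log2, linear between -1 and 1 and logarithmic beyond) for the measured members of 16 gene lists (rows). Circles are genes, filled where called, and bars are list medians: Wnt targets and streak genes lie to the left (medians -0.61 and -0.59), neural genes to the right (0.72), and replication, mitosis, ribosomal and oxidative phosphorylation genes near 0.

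Among signalling pathways, Nodal/Activin genes had 6 higher and no lower calls of 19 measured (median 0.11). Lefty1, a secreted Nodal antagonist, fell in parental cells from 55.4 and 50.1 CPM to 15.6 and 13.6 and stood in the knock-out at 68.8 and 64.7 and then 64.7 and 58.3 (1.74 ± 0.11, adjusted p = 6.401e-06). Its neighbour Lefty2 (0.49), the activin subunit Inhbb (0.51) and the Smad co-repressor Skil (0.58) also had a higher response in the knock-out. In BMP signalling 3 genes were called lower and 1 higher of 17 (23.5%, against 6.13% of all genes), with a median of -0.08. DESeq2 called 2 in all and gave Msx2 no adjusted p. Of the lower ones, Bmp7 (-0.77) was not called by DESeq2 (adjusted p = 0.155) and kept its call without parental DMSO replicate 2 and without knock-out DMSO replicate 1, but lost it without any other single library. Msx2 (-2.78) kept its call without knock-out DMSO replicate 2 and without knock-out CHIR99021 replicate 2, and its adjusted p reached 0.2 in the other fits that left out 1 library. The called Id genes, Id2 and Id3, which encode inhibitors of helix-loop-helix factors, went opposite ways. Id2 fell in parental cells from 14.6 and 15.9 CPM to 3.68 and 3.14, against 14.9 and 15.1 and then 12.6 and 13.7 in the knock-out (1.97 ± 0.14, adjusted p = 1.254e-05). Id3 rose in parental cells from 10.7 and 11.5 CPM to 25.2 and 23.6, against 11.9 and 8.93 and then 9.55 and 9.31 (-1.29 ± 0.17, adjusted p = 0.000858).

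FGF/ERK genes had 5 higher and 3 lower calls of 23 measured (median 0.11). Fgf4, the main autocrine FGF of embryonic stem cells, fell from 196 and 197 CPM to 112 and 111 in parental cells and stood at 194 and 194 and then 197 and 195 in the knock-out (0.84 ± 0.05, adjusted p = 4.963e-06). Fgf15 (0.94), Dusp4, an ERK phosphatase (1.71), and Etv1, an ETS factor induced by FGF (0.63), lay on the same side. LIF/STAT3 genes had 4 lower and 2 higher calls of 18 (median -0.10), the lower ones being Pim1, Sgk1, Tfcp2l1 and Klf4, and Socs2, a feedback inhibitor, lying on the higher side (0.61 ± 0.07, adjusted p = 0.000435). Hedgehog genes had 4 higher and no lower calls of 16 (25%, against 6.13% of all genes; median 0.19), all targets and feedback genes of the pathway. The receptor Ptch1 fell from 126 and 126 CPM to 57.3 and 59.8 in parental cells and from 164 and 169 to 136 and 135 in the knock-out (0.81 ± 0.06, adjusted p = 1.221e-05). Gli1, a transcription factor and target of the pathway (0.59), and Hhip, a decoy receptor (2.40), were also called. In the Notch pathway 2 of 18 genes were called (11.1%, against 6.13% of all genes tested), Notch1 (0.60) and its nuclear partner Rbpj (0.50), both higher.

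Neural genes had the highest median of the lists with more than 2 measured genes, 0.72, with 9 of 18 measured called, all higher. Tubb3, neuronal β-tubulin, fell in parental cells from 73.3 and 74.2 CPM to 33.0 and 34.4 and in the knock-out from 82.9 and 72.9 to 61.7 and 60.8 (0.78 ± 0.09, adjusted p = 0.000303). Crmp1, a microtubule-binding protein of axons, fell from 11.8 and 12.1 CPM to 2.49 and 2.43 in parental cells and from 20.2 and 18.1 to 9.27 and 8.73 in the knock-out (1.19 ± 0.15, adjusted p = 0.00059). Its sign depends on the scale: in CPM the knock-out lost more, by a difference of -0.676. The adhesion gene Ncam1 (0.69), Bcl11a and Sox21 were also called. The 6 neural markers summed to 101 and 103 CPM and then 48.3 and 49.2 in parental cells and to 107 and 99.7 and then 81.9 and 83.7 in the knock-out, 4 of 6 reached 1 CPM, and their part in these differences was not tested.

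Extraembryonic endoderm genes had 4 higher and 1 lower call of 18 measured (median 0.30), and their 7 markers summed to 21.2 and 22.2 and then 11.2 and 13.0 CPM in parental cells, against 29.4 and 28.7 and then 28.1 and 25.9 in the knock-out, with 4 of 7 at 1 CPM or more in some library. Sox7, an endoderm and endothelial factor, was called at 1.17 ± 0.17 (adjusted p = 0.00158), and Cited1 was the lower call (-4.65 ± 0.61). Cited1 reached only 3.45 and 3.47 CPM in parental CHIR99021. Its fold rests on 9 counts in parental DMSO, 24 in knock-out DMSO and 17 in knock-out CHIR99021. Basement membrane and matrix genes had 9 higher and 2 lower calls of 23 (47.8% called, median 0.19). The collagen IV genes Col4a1 and Col4a2, which share a promoter region and overlap on opposite strands, fell in parental cells from 30.5 and 33.4 CPM to 15.2 and 13.8 and from 13.7 and 13.8 to 7.51 and 6.98. In the knock-out Col4a1 stood at 76.5 and 71.0 and then 73.9 and 65.6, and Col4a2 at 31.3 and 29.6 and then 29.8 and 30.5 (1.06 ± 0.11, adjusted p = 0.000227, and 0.91 ± 0.10, adjusted p = 0.000299). Lama5, a laminin chain, rose in both lines, from 267 and 281 CPM to 524 and 486 and from 354 and 354 to 412 and 406 (-0.67 ± 0.06, adjusted p = 7.8e-05). Trophoblast genes had 4 lower and 1 higher call of 15 (median -0.11), but 2 calls by DESeq2, which did not call the keratin genes Krt8 (adjusted p = 0.0564) or Krt19 (0.152) and gave Cdx2 no adjusted p. Krt19 kept its call without parental DMSO replicate 2 and without parental CHIR99021 replicate 2, and lost it without any other single library. Epithelial-mesenchymal transition genes had 2 calls each way of 23 (17.4%, against 6.13% of all genes tested), with a median of 0.01.

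Among large housekeeping groups, the share called was near or below the 6.13% of all genes tested. Nuclear genes of oxidative phosphorylation had 0 of 27 by edgeR (3 at an unadjusted p under 0.05, 1 by DESeq2, 0 by limma-voom). DNA replication had 1 of 26, mitosis 1 of 22, cytosolic ribosomal proteins 1 of 28, mitochondrially encoded genes 1 of 13 (7.69%), and lysosome and autophagy 2 of 30 (6.67%). DESeq2 called 3 replication, 3 mitosis, 0 ribosomal, 1 mitochondrially encoded and 0 lysosomal genes, and limma-voom 3, 1, 1, 2 and 2. The medians of these 6 lists lay between -0.08 and 0.08, with 24 of the 28 ribosomal and 20 of the 26 replication genes below 0. Glycogen metabolism had 1 of 21, NRF2 antioxidant genes 2 of 22, MHC class I and antigen presentation 1 of 16, the p53 response 3 of 23, the stress responses 2 of 25, glycolysis and hypoxia 3 of 26, and germline genes 2 of 23; DESeq2 called 1, 1, 0, 1, 2, 1 and 1 in the same order. Imprinted genes had 4 of 25, annexins 3 of 10, the ecto-nucleotidase list 4 of 13 and TCF/LEF factors with their partners 3 of 16. Of the ecto-nucleotidase list, Nt5e and the alkaline phosphatase gene Alpl (-0.86 ± 0.07, adjusted p = 3.324e-05) had a lower response in the knock-out. Enpp3 and Pnp (0.38 ± 0.06, adjusted p = 0.00209) had a higher one. Pnp, listed with them, encodes purine nucleoside phosphorylase, which is not an ecto-nucleotidase. The amino acid synthesis gene Asns (-0.48) and the stress factor gene Xbp1 (0.56) were the called stress genes. Of 2 measured genes of the state resembling the 2-cell embryo and 8 blood and endothelial markers, 0 were called by edgeR, DESeq2 or limma-voom and 0 had an unadjusted p under 0.05. Of 6 fibroblast markers 1 was called, Pdgfrb (-1.16).

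Genes with a called difference set the lines further apart under CHIR99021 than in vehicle. The knock-out and parental lines were further apart in CHIR99021 than in DMSO for 966 of the 1087 genes (88.9%), as for 61.9% of all genes tested. Their median absolute log2 distance was 0.14 in DMSO and 0.56 in CHIR99021 for the called genes, against 0.13 and 0.19 for all genes. The other 121 called genes were closer together in CHIR99021, 59 with a higher and 62 with a lower response in the knock-out. Islr2, an axon guidance receptor, stood at 17.7 and 19.9 CPM in parental and 10.0 and 8.01 in knock-out DMSO, and at 7.16 and 6.98 and then 8.31 and 8.07 in CHIR99021 (1.27 ± 0.16, adjusted p = 0.000858). Unc5b, a netrin receptor, stood at 16.9 and 17.1 and then 26.7 and 25.0 CPM in DMSO, and at 31.9 and 36.6 and then 24.1 and 23.98 in CHIR99021 (-1.11 ± 0.11, adjusted p = 0.000112). In both genes the parental line moved to or past the level that the knock-out held under either treatment. These 2 genes were named after their values were seen.

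**Figure D5:**
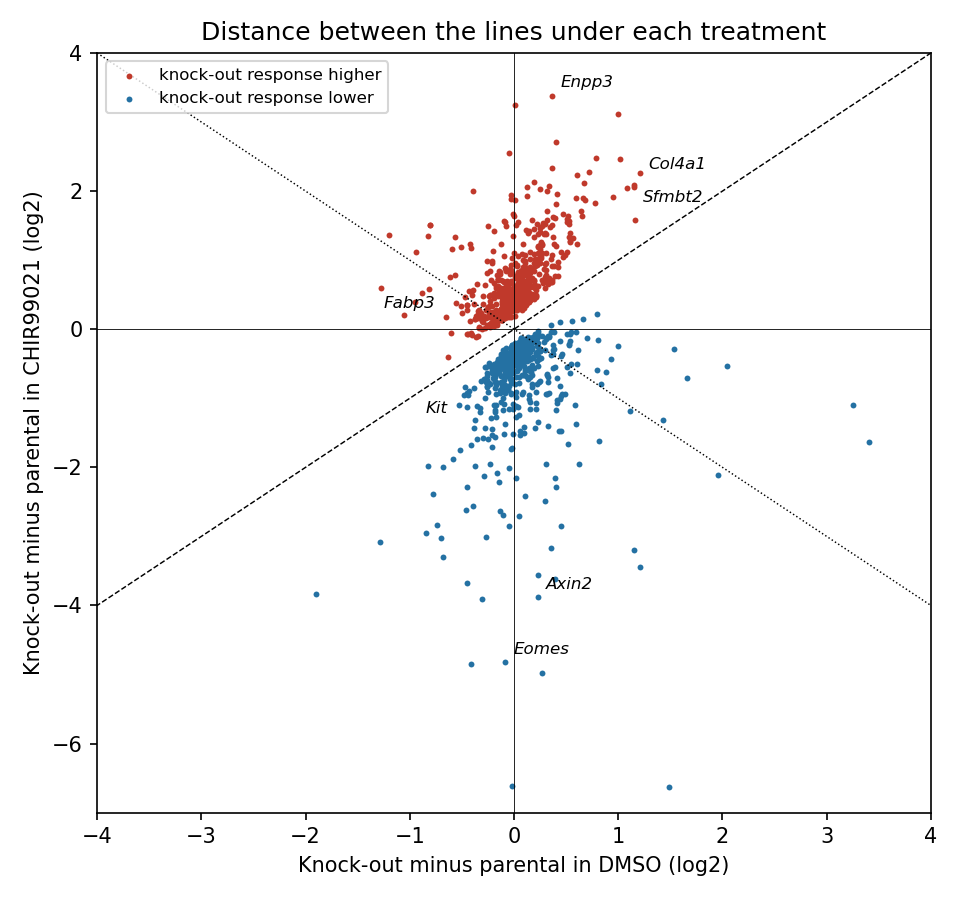
Knock-out minus parental level in DMSO (horizontal, log2) against the same in CHIR99021 (vertical, log2) for the 1087 genes with a called difference of responses, coloured by its sign. The dashed line marks equal distance with the same sign and the dotted line with opposite sign, and 13 genes lie outside the axes. Most points lie nearer the vertical axis, further apart in CHIR99021 (966 genes), as Axin2 and Enpp3 do, and Fabp3 is 1 of the 121 that are not.

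The sign of the difference was the same on the linear CPM scale for all but 2 of the 1087 genes. Called genes were spread over the genome: on the autosomes the share called ran from 4.59% on chromosome 12 to 10% on chromosome 14 (60 of 600 genes), the X chromosome had 5.82%, and median differences on autosomes lay between -0.04 and 0.04. Of the 166 genes examined by name, 51 share part of their annotated span with a neighbour that was also tested, antisense to it in 41 cases, and their counts may include reads of that neighbour.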

How the data were processed

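Total RNA of 8 samples (2 per group) was made into stranded mRNA libraries, per the labels' protocols. The authors deposited 1 table of estimated counts per gene; kallisto (version not given) and GRCm38.p4 are named in the submitters' processing notes, and the transcript set and strand setting are not given in the sources used here. These deposited values were rounded to integers before any test. A gene entered by filterByExpr (minimum count 10, total 15), which retained 99.905 to 99.918% of counts, and scaled by TMM (factors 0.9857 to 1.0181). edgeR 4.0.16 (R 4.3.3) fitted 1 mean per group with 4 residual degrees of freedom, and the quasi-likelihood test of the contrast between responses was adjusted by Benjamini-Hochberg over 17739 genes. An SE is the absolute log2 difference divided by the square root of F. CPM are counts scaled to the TMM-adjusted library total. Library totals were 23650572 to 27680649 counts.

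The members and the 44 gene lists (871 symbols) were chosen with earlier results of these data known, and lists were described by counts and medians alone. Genes named were Ctnnb1, the 12 highest and 12 lowest differences among called genes with a group mean of at least 5 CPM and responses that did not overlap, the 4 lowest p-values per class and direction, up to 4 called genes per list, and a set of pathway and pluripotency genes. Ccne1 and 8 genes closer in CHIR99021 were added after their values were seen. Gene positions are from GENCODE M21 (GRCm38) for 17680 of 17739 genes. Scripts were tested on simulated counts. Alternatives were size factors of DESeq2's kind (RLE), no filter, a filter of 5 CPM in 2 libraries, a replicate block, leaving out each library, DESeq2 1.42.0, limma-voom (limma 3.58.1), an adjusted p of 0.01, a fold of 2 and the linear scale. Intervals cover counting error only. Some genes are not reported here.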

Additional observations from a re-analysis of the deposited data

Results flagged for a closer look

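The lines' responses to CHIR99021 differed, by the test of the difference itself, at 1087 genes. Within them 40 had opposite called responses and 5 a larger called response in the knock-out. The 4 opposite-response genes with the lowest p on each side were, with a lower response in the knock-out, Axin2 (-4.11), Lhpp (-2.51), Porcn (-1.61) and Ephx2 (-1.28), and with a higher one Sfmbt2 (0.93), Ldhb (0.68), Tenm4 (0.64) and Abcc4 (0.56), each as a log2 difference of responses. All 8 kept the call of that difference in every alternative fit, and the 4 with a higher response lie under the 2-fold threshold. Groups of 2 libraries are too small for a test of single libraries that stand apart.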

How the results depend on the processing

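Of 158 called genes examined by name, 116 kept direction and call in every alternative that had a result for them. The filter of 5 CPM in 2 libraries had a result for 151 of the 158, and DESeq2 for 156. The call was lost in at least 1 alternative by 41 genes, 22 of them outside the replicate block and the fits that left out a library. The other gene, Crmp1, kept its call but turned its sign in CPM. The total of 1087 genes (571 higher, 516 lower) became 1990 (1069 and 921) with no filter beyond 1 count, 509 (282 and 227) at an adjusted p of 0.01, and 240 (104 and 136) with a 2-fold threshold. The adjusted p of 0.01 and the 2-fold threshold were applied to these totals alone, not to the genes examined by name. Leaving out 1 library at a time gave 605 to 1143 genes, 339 to 571 higher and 266 to 572 lower. The lowest totals were 605 without knock-out CHIR99021 replicate 2, 628 without parental CHIR99021 replicate 1, 691 without knock-out DMSO replicate 1 and 700 without parental DMSO replicate 1. Without parental DMSO replicate 2 the lower side had 340 genes. DESeq2 called 744, 333 of them lower, and shared 700 with the main count; limma-voom called 1075 and shared 1044. The filter of 5 CPM in 2 libraries gave 61 opposite responses, 116 in the knock-out alone and 11 larger in the knock-out, and the replicate block gave 3 of the last class. The cause was not tested.

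Replicate differences of same-numbered libraries correlated at 0.37 between parental CHIR99021 and knock-out DMSO. In the other pairs of groups the correlations ran from -0.16 to 0.09. Whether the numbers mark a shared batch was not tested. A fit with the replicate block called 1135 genes, of which 1034 were shared.

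Signs turned for uncalled genes near 0 and for 1 of the called genes examined by name (2 of all 1087 called). Over the fits that left out 1 library, Gsk3a ranged from -0.107 to 0.0471, Pou5f1 from -0.0388 to 0.0386, Esrrb from -0.0453 to 0.0511, Ctnnb1 from -0.131 to 0.295 and Lef1 from -0.829 to 0.79. Crmp1, called on the log2 scale, had a difference of -0.676 in CPM. Every call shared with an alternative kept its direction, and scaling moved the median of all genes by under 0.1. Depth limits genes under about 1 CPM, such as Sp5 outside parental CHIR99021, where fitted folds rest on few counts. With 2 libraries per group, an uncalled difference does not show equal responses.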
